A study of Mus musculus with 2 samples.

Results

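The amino acid transporter genes were taken as all array genes with a single symbol in the solute carrier families Slc1, Slc3, Slc6, Slc7, Slc36, Slc38 and Slc43. These 7 families held 63 of the 24315 genes named by the deposited annotation, measured by 66 probesets. Genes entered by their symbols, and the rule has no threshold on signal. The names bring in some genes that carry no amino acid found in proteins. Among them are the taurine, creatine, GABA and monoamine carriers of Slc6 and the purine base carrier Slc43a3. Slc7a6os, a gene beside Slc7a6, is no transporter.

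Cells cannot make all amino acids, and they bring them across the plasma membrane by exchange, by coupling to sodium, or by facilitated diffusion. Many light chains of the Slc7 family reach the cell surface only when joined to a heavy chain, Slc3a2 (CD98) or Slc3a1. Other carriers sit on lysosomes and return amino acids from digested protein to the cytosol, where the mTORC1 kinase complex responds to them. Macrophages take up arginine for nitric oxide and polyamine synthesis, cystine for glutathione, and glutamine as fuel.

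The RNA came from peritoneal macrophages that thioglycollate had elicited in C57BL/6 mice. One array held RNA of HDAC11 knockout mice and the other RNA of wild-type mice, so each genotype had 1 array. The cells were left untreated in culture overnight and the adherent ones were used, although the sample descriptions call them freshly isolated. The number and sex of the mice and the form of the Hdac11 allele are not known from the labels. No difference therefore has a replicate check, no test was possible, and precision is limited by having 1 array on each side. In RNA of a whole sample, fewer cells of a type and less RNA per cell cannot be told apart.

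Signals are the authors' RMA values on a linear scale, and each difference is the log2 signal of the knockout-labelled array minus that of the wild-type array. A gene was described in full when its brighter signal reached 159, the median over all named genes, and 27 of the 63 did so (42.9%). Signals of different genes depend on their probes and were not set against each other.

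The label of the knockout array could not be checked from the targeted gene. Hdac11 gave 147.2 on the knockout-labelled array and 134.5 on the wild-type array, both below the floor, and the labels do not say whether its probes lie in the deleted part. Among the 12 macrophage identity markers 11 reached the floor, and their median difference was 0.00. Markers of resident peritoneal macrophages summed to 14074 on the knockout-labelled array against 17494 on the wild-type array, with Timd4 and Emr4 below the floor. Of the 11 above it 7 were lower (63.6%, against 53.2% of all genes above the floor), 5 of them by 1.2-fold (45.5%, against 6.93%). Most of the gap between the sums came from Fn1, with 9340 on the knockout-labelled array against 11878 on the wild-type array. Selp, at 243 against 429 in the same order, and Cxcl13, at 1019 against 1539, were lower by 1.5-fold. F5 was higher by 1.5-fold at 519 against 340 in the same order. Stromal and mesothelial markers summed to 3693 against 4374 in the same order. All 7 of them above the floor were lower, 3 by 1.2-fold, beside the same shares of all genes. Msln, Lum, Krt19 and Thy1 were below it. Mast cell markers summed to 715 against 447, where Cpa3 alone reached the floor. No T cell or adipocyte marker reached it, and the other 8 of the 14 marker lists had 1 to 4 genes there. The 5331 intron controls had a median of -0.36. The part of these shifts in the values below was not tested.

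Most of the transporter genes differed little between the arrays. Of the 27 above the floor, 15 were lower and 12 higher on the knockout-labelled array, with a median difference of -0.05 against -0.01 for all 12158 genes above the floor. Without a floor the median over the 63 genes was 0.05, against 0.02 for all 24315 genes. Lower genes made up 55.6% of the 27 above the floor, against 53.2% of all genes above the floor, of which 46.4% were higher. A fall of 1.5-fold or more was seen in 1 gene, Slc7a5, where 1.01% of all genes above the floor fell that far. No transporter gene was higher by 1.5-fold, against 0.543% of all genes. At the smaller size of 1.2-fold, 3 were lower (11.1%), against 6.93% of all genes, and 1 was higher (3.70%), against 7.11% of all genes. The lower 3 were Slc7a5, Slc7a1 and Slc1a5, which carry large neutral amino acids, cationic amino acids and glutamine.

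**Figure D1:**
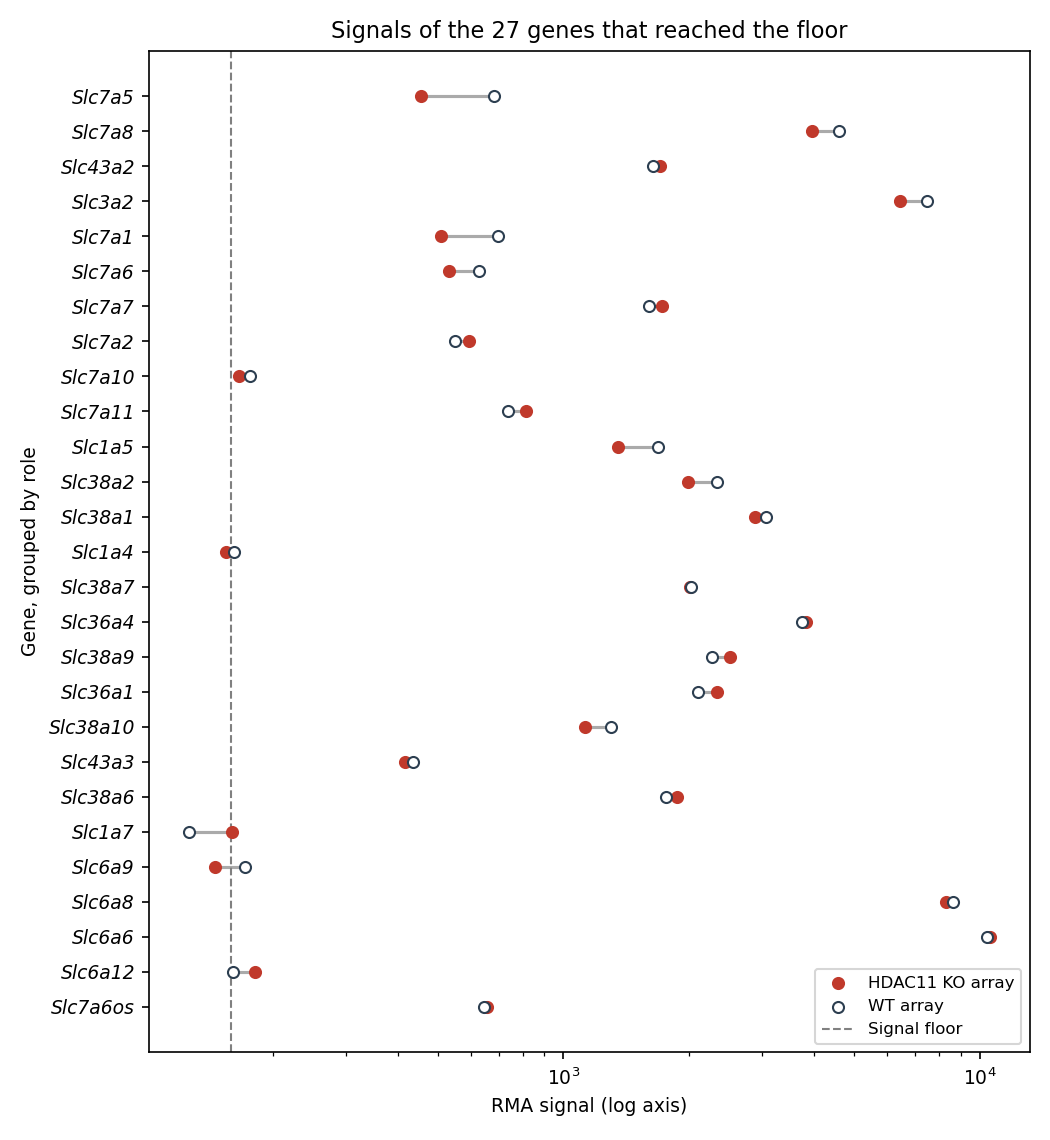
RMA signals (log axis) of the 27 genes above the floor, grouped by role, with the knockout-labelled array as filled red points, the wild-type array as open points and the floor of 159 as a dashed line. Slc7a5 lies at 453 on the knockout-labelled array and 680 on the wild-type array, whereas the points of Slc6a6 nearly coincide.

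Promoter sequence is shown for transporter genes because several of them are known to be induced when amino acids run short. In that state the transcription factor ATF4, with a C/EBP partner, binds a composite element in the control regions of several transporter genes. RefSeq windows of GRCm38.p6, running from 250 bases before to 50 bases after a gene's start, were at hand for 45 of the 63 genes and for 20 of the 27 above the floor. They were searched on both strands for TGATGNAA, a core of that element. Matches stood in 3 of the 45 genes, all 3 above the floor (6.67%, against 4.51% of 27025 genes), and in 7 of 23 genes of the amino acid response list with a window. A gene counted when any of its windows held a match, and Slc7a7 had 5 windows. Of all 32851 windows 3.97% held a match. The 3 genes were Slc7a11 (chr3:50443564-50443863 (minus strand)), Slc7a7 (chr14:54418026-54418145 (minus strand)) and Slc1a4 (chr11:20332664-20332783 (minus strand)). Capitals mark the matches, and Slc7a7 has a further one outside the stretch shown.
Slc7a11: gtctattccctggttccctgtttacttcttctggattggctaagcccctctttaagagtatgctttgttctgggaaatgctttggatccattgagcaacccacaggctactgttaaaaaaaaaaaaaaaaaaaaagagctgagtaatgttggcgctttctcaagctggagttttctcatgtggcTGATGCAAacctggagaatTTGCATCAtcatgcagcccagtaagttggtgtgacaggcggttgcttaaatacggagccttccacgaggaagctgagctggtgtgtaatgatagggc
Slc7a7: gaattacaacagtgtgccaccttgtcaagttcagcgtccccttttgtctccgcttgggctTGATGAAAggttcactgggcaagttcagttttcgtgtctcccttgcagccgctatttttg
Slc1a4: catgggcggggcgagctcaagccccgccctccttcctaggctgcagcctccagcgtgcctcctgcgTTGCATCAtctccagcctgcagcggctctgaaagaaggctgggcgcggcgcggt

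In Slc7a11 the 2 matches began 66 and 47 bases before the start and lay on opposite strands. The differences were 0.14 for Slc7a11, 0.10 for Slc7a7 and -0.07 for Slc1a4. None of these 3 genes was lower by 1.2-fold on the knockout-labelled array, and only 6.93% of all genes above the floor were. The windows of the lower genes Slc7a1, Slc7a6, Slc7a8, Slc7a10, Slc3a2, Slc38a2, Slc38a7, Slc38a10 and Slc6a9 held no match. Of these Slc7a1 alone was lower by 1.2-fold. Those of the higher genes Slc1a7, Slc36a1, Slc36a4, Slc38a6, Slc38a9, Slc43a2, Slc6a12 and Slc7a6os held none either. Slc7a5, Slc1a5, Slc38a1, Slc43a3 and Slc6a8, also lower, had no window and were not searched. Whether a match goes with a difference was not tested. A match describes letters and is not a binding site by itself. Elements outside such a window were not searched, so a window without a match does not show that a gene lacks the element. The windows of Slc7a1 (chr5:148399855-148400154 (minus strand), the first of 2) and Slc3a2 (chr19:8713848-8714147 (minus strand)) are given for comparison.
Slc7a1: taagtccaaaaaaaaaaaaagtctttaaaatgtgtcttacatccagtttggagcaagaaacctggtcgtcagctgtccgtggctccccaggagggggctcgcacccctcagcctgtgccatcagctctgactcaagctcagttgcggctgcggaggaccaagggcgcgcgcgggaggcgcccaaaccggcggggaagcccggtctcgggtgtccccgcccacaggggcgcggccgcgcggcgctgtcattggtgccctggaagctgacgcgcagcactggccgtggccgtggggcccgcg
Slc3a2: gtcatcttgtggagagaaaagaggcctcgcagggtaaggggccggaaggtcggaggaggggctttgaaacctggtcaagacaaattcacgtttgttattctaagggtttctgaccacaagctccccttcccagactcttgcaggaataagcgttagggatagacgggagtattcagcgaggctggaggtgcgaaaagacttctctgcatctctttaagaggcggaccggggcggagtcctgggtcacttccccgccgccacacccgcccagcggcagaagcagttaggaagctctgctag

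The carriers of large neutral amino acids (system L) were led by the largest difference of any of the 63 genes. Slc7a5 (LAT1, probeset 17513641, chromosome 8, 121881146 to 121907694, minus strand, 15 probes), which exchanges leucine and other large amino acids for glutamine, gave 453 on the knockout-labelled array and 680 on the wild-type array. The difference was -0.59, or 1.5-fold, and 123 of the 12158 genes above the floor were at least as low. It sits on the edge of the 1.5-fold size, since the unrounded ratio is 1.50005, and it fell short of it under 5 other settings. Genome builds are not given for the deposited coordinates. The SD of the differences among the 500 genes of closest mean signal was 0.21; this is spread between genes, not between replicates.

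The related LAT2 gene Slc7a8 gave 3955 on the knockout-labelled array and 4606 on the wild-type array. The difference was -0.22, and 10.5% of genes above the floor were at least as low. Slc43a2 (LAT4), a carrier of branched-chain amino acids and phenylalanine that needs no heavy chain, gave 1711 on the knockout-labelled array and 1645 on the wild-type array (0.06). Slc43a1 (LAT3) stayed below the floor at 132 and 118 in the same order. Of the 3 system L genes above the floor 2 were lower, 1 of them by 1.2-fold. Of all genes above the floor 53.2% were lower, 6.93% by 1.2-fold. Both lower genes join Slc3a2, and Slc43a2 does not. Of all 6 light chain genes that join Slc3a2, 4 were lower and 2 higher. Whether joining Slc3a2 goes with a difference was not tested.

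The heavy chain Slc3a2, the CD98 glycoprotein that carries its light chains to the cell surface, gave 6449 on the knockout-labelled array and 7486 on the wild-type array (-0.22). Among the 500 genes of closest mean signal the SD of the differences was 0.12, which is narrower than for Slc7a5. All 6 of its light chain genes reached the floor, with a median of -0.16 and a range of -0.59 to 0.14. Of these 4 were lower (66.7%, against 53.2% of all genes above the floor). Only 1, Slc7a5, was lower by 1.2-fold (16.7%, against 6.93%). The 4 lower ones were Slc7a5, Slc7a6, Slc7a8 and Slc7a10, and the 2 higher ones were Slc7a7 and Slc7a11. The other heavy chain, Slc3a1, and its partner Slc7a9, which serve reabsorption in the kidney, gave 78.3 and 49.8 on the knockout-labelled array, against 72.1 and 52.0 on the wild-type array.

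Carriers of cationic amino acids went both ways. Slc7a1 (CAT1, probeset 17455401, chromosome 5, 148327410 to 148399904, minus strand), a broadly expressed carrier of arginine and lysine, gave 508 on the knockout-labelled array and 698 on the wild-type array. Its difference of -0.46, or 1.38-fold, was reached or passed by 1.84% of all genes above the floor. Slc7a2 (CAT2), which supplies arginine to activated mouse macrophages, gave 592 on the knockout-labelled array and 547 on the wild-type array (0.11). CAT1 and CAT2 therefore differed in sign, which was not tested.

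The genes of the y+L exchangers, which release cationic amino acids in return for neutral ones and sodium, also had opposite signs. Slc7a6 gave 531 on the knockout-labelled array and 627 on the wild-type array (-0.24). Slc7a7, whose human counterpart is mutated in lysinuric protein intolerance, gave 1727 on the knockout-labelled array and 1609 on the wild-type array (0.10). Slc7a3 (CAT3) lay below the floor at 54.4 and 57.6 in the same order. Slc7a6os, which lies 1.73 kb from Slc7a6 on the opposite strand, gave 655 on the knockout-labelled array and 645 on the wild-type array (0.02), so the lower signal of Slc7a6 was not seen in its neighbour.

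Slc7a11 (xCT), which exchanges glutamate for cystine and so feeds glutathione synthesis, gave 813 on the knockout-labelled array and 737 on the wild-type array. The difference of 0.14 was matched or passed by 18.7% of genes above the floor. A second Slc7a11 probeset on the opposite strand gave 12.9 on the knockout-labelled array and 13.4 on the wild-type array. Slc7a10 (Asc-1), a carrier of small neutral amino acids, was near the floor at 166 on the knockout-labelled array and 177 on the wild-type array (-0.09). The other 5 light chain or orphan genes of the family, Slc7a4, Slc7a12, Slc7a13, Slc7a14 and Slc7a15, did not reach the floor.

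Sodium-coupled carriers of neutral amino acids had 4 genes above the floor, each lower on the knockout-labelled array, and their median was -0.16. Of all genes above the floor 53.2% were lower, 6.93% by 1.2-fold, and of these 4 carriers only Slc1a5 was lower by that much. Slc1a5 (ASCT2, probeset 17474143, chromosome 7, 16781346 to 16798274, plus strand), an exchanger that brings in glutamine, gave 1355 on the knockout-labelled array and 1688 on the wild-type array. The difference was -0.32, or 1.25-fold, and 4.60% of genes above the floor were at least as low. A second Slc1a5 probeset, on the opposite strand, stayed below the floor at 143 on the knockout-labelled array and 138 on the wild-type array, and averaging both puts the gene at -0.14.

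Slc38a2 (SNAT2), the system A carrier known to be induced by amino acid shortage, gave 1988 on the knockout-labelled array and 2340 on the wild-type array (-0.24). Its chromosome 15 neighbour Slc38a1 (SNAT1), 44.5 kb away, gave 2880 on the knockout-labelled array and 3061 on the wild-type array (-0.09). Slc1a4 (ASCT1), a carrier of serine, alanine and cysteine, gave 154 on the knockout-labelled array, below the floor, and 162 on the wild-type array (-0.07). Slc38a3, Slc38a4 and Slc38a5 were below the floor on both arrays, with differences of 0.19, 0.22 and -0.11.

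**Figure D2:**
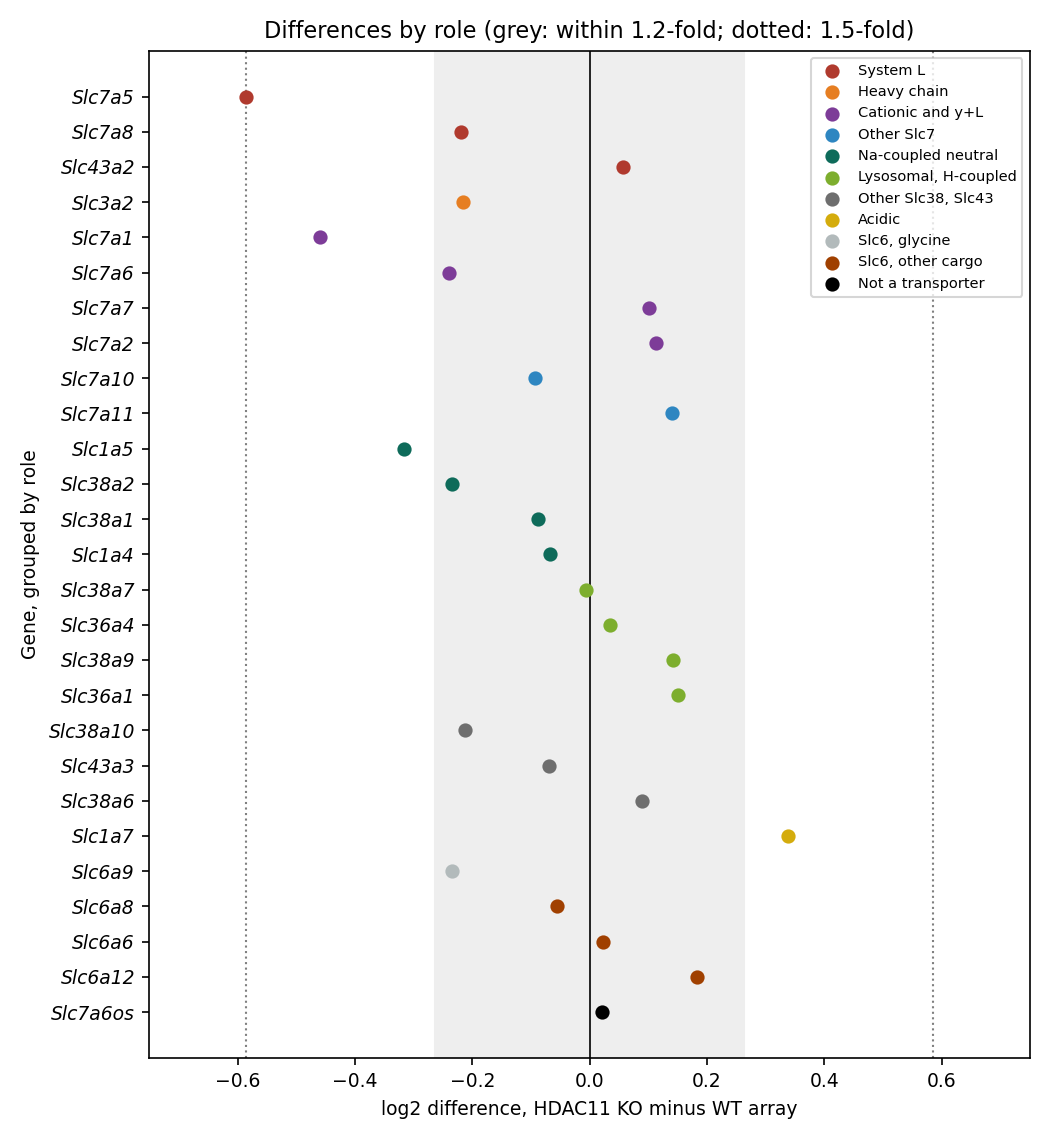
Difference in log2 signal (knockout-labelled minus wild-type array) of the 27 genes above the floor, coloured by role, with the grey band marking differences within 1.2-fold and dotted lines 1.5-fold. Slc7a5, Slc7a1 and Slc1a5 lie left of the band, Slc1a7 right of it, and the 4 lysosomal and proton-coupled genes between -0.01 and 0.15.

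Of the lysosomal and proton-coupled carriers, 4 were above the floor, 3 higher and 1 lower, all within 1.2-fold. Most genes above the floor lay within that size too, since 6.93% were lower and 7.11% higher by at least as much. Slc38a9, the lysosomal arginine sensor of the mTORC1 pathway, gave 2509 on the knockout-labelled array and 2274 on the wild-type array (0.14). Slc36a1 (PAT1), which couples export from the lysosome to protons, gave 2335 on the knockout-labelled array and 2102 on the wild-type array (0.15). Their differences were close to each other in size, and 18.5% and 17.2% of genes above the floor were at least as high.

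Slc36a4 (PAT4) gave 3828 on the knockout-labelled array and 3737 on the wild-type array (0.03). Slc38a7, reported in human cells to release glutamine and asparagine from lysosomes, gave 2018 on the knockout-labelled array and 2025 on the wild-type array (-0.01). Slc36a2 and Slc36a3, which neighbour Slc36a1 on chromosome 11, stayed below the floor, so this cluster had 1 of its 3 genes above it. That the median of the 4 lysosomal genes was 0.09 and that of the sodium-coupled neutral carriers -0.16 is a description of 2 arrays; the difference between these groups was not tested.

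The E-box CACGTG, which reads the same on both strands, is the core of the element through which TFEB controls many lysosomal genes. It stood in the windows of 9 of 45 transporter genes (against 8.09% of 27025 genes). Of the 20 above the floor with a window, 3 held it: Slc36a1, Slc38a7 and Slc1a7. The others, all below the floor, were Slc43a1, Slc7a14, Slc6a16, Slc1a6, Slc6a3 and Slc38a5. Among all these genes only Slc36a1 and Slc38a7 belong to the lysosomal and proton-coupled carriers. Slc36a4 and Slc38a9, of the same group and above the floor, had windows that held no E-box. In Slc36a1 it occurred at 31 and 3 bases before the start (chr11:55204249-55204368 (plus strand)), and in Slc38a7 at 34 (chr8:95853466-95853585 (minus strand)). No window of these genes held both motifs.
Slc36a1: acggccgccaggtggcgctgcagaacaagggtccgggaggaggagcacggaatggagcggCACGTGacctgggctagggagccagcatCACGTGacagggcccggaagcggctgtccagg
Slc38a7: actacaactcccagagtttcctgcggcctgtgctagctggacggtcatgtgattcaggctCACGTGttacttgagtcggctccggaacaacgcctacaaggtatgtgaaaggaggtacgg

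Less characterised members were measured as well. Slc38a10 gave 1126 on the knockout-labelled array and 1304 on the wild-type array (-0.21), and Slc38a6 gave 1872 on the knockout-labelled array and 1759 on the wild-type array (0.09). The Slc38a10 probeset of the opposite strand gave 92.7 on the knockout-labelled array and 122.7 on the wild-type array, below the floor on both. Slc43a3, which carries purine bases, gave 416 on the knockout-labelled array and 436 on the wild-type array (-0.07).

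Carriers of acidic amino acids were mostly below the floor. Of the 5 glutamate carriers of the Slc1 family, Slc1a7, known from the retina, barely reached the floor on the knockout-labelled array at 160, against 126 on the wild-type array. Its difference of 0.34, the highest among the 27 genes, was measured with the wild-type signal below the floor and drops out when both arrays must reach it, and the 500 genes of closest mean signal had an SD of 0.33. The glial carriers Slc1a2 and Slc1a3, both below the floor, differed by 0.33 and 0.29. Slc1a1 and Slc1a6 were also below the floor.

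In Slc6, 4 of 20 genes reached the floor. Slc6a6, the taurine carrier, gave 10577 on the knockout-labelled array and 10409.7 on the wild-type array (0.02). By the deposited coordinates it starts 509 kb beyond the end of Hdac11 on chromosome 6, which makes it the closest of the 63 genes to Hdac11. The creatine carrier Slc6a8 gave 8304 on the knockout-labelled array and 8626 on the wild-type array (-0.05). Both of these carriers of other cargo thus differed by less than 0.1.

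The betaine and GABA carrier Slc6a12 gave 182 on the knockout-labelled array and 160 on the wild-type array (0.18), and its neighbour Slc6a13, 5.34 kb away, stayed below the floor. The glycine carrier Slc6a9 (GlyT1) gave 146 on the knockout-labelled array and 171 on the wild-type array (-0.23), with the first of these below the floor. The serotonin, dopamine and noradrenaline carriers Slc6a4, Slc6a3 and Slc6a2 were below the floor on both arrays.

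Of the 36 genes below the floor, 26 were higher, 9 lower and 1 equal on the knockout-labelled array. That share of 72.2% higher compares with 63.0% of the 12157 genes below the floor in all, so dim probesets in general ran higher on that array. Their signals lay between 15.2 and 155.9 on the knockout-labelled array and between 13.8 and 143.8 on the wild-type array. The differences ranged from -0.33 (Slc7a4) to 0.55 (Slc6a4). Slc6a15 had exactly equal signals of 35.5 on both arrays. The 10 neighbouring pairs within 200 kb held 2 pairs with both genes above the floor, Slc38a1 with Slc38a2 and Slc7a6 with Slc7a6os.

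**Figure D3:**
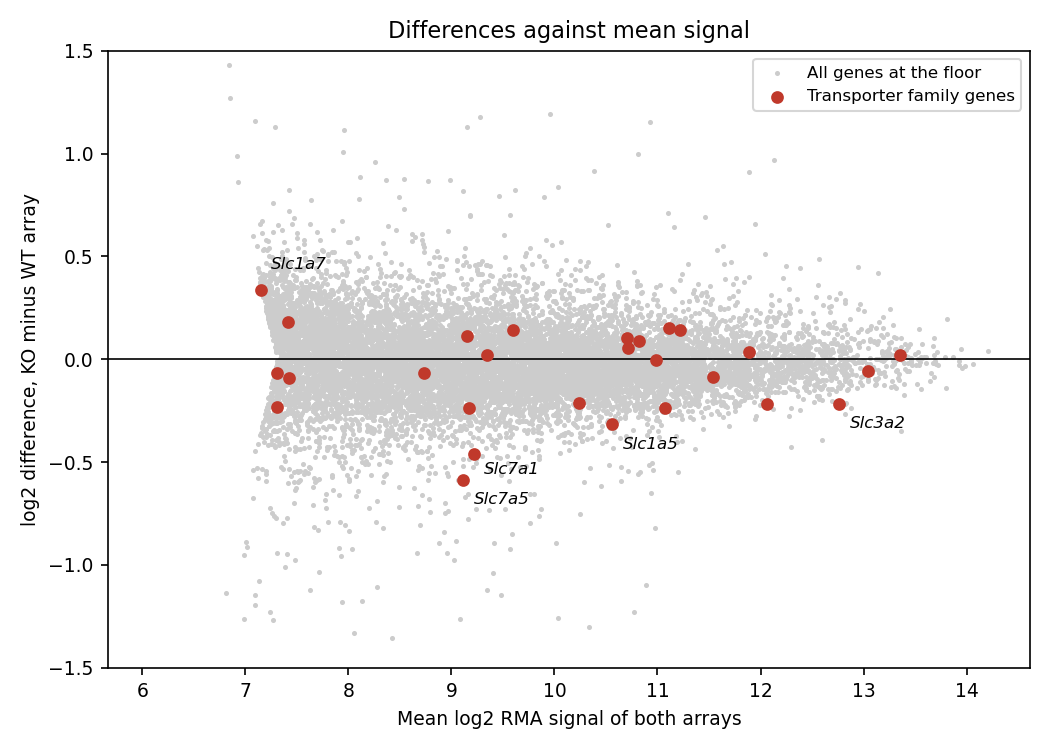
Difference in log2 signal (knockout-labelled minus wild-type array) against mean log2 signal for the 12158 genes above the floor in grey and the 27 transporter genes in red; 11 genes lie outside the plotted range of 1.5 either way. Slc7a5 and Slc7a1 lie at the lower edge of genes of like signal, and most other red points lie within the grey cloud.

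Genes that respond to amino acid shortage were next set beside the carriers. Of the 25 in the list, 19 were above the floor, and 13 of these were lower on the knockout-labelled array, with a median of -0.14. By 1.2-fold 6 were lower (31.6%) and none higher. The lists were chosen with earlier results of these data known, so this share is no independent check. Beside this list and the following ones stand the shares of all genes above the floor, with 53.2% lower, 6.93% lower by 1.2-fold and 7.11% higher by 1.2-fold. The mitochondrial folate enzyme gene Mthfd2 gave 470 on the knockout-labelled array and 779 on the wild-type array (-0.73). Asns, which makes asparagine and is a textbook ATF4 target, gave 693 on the knockout-labelled array and 1091 on the wild-type array (-0.65). Atf4 itself, named after its values were seen, gave 1055 on the knockout-labelled array and 1197 on the wild-type array (-0.18). The 6 higher genes of the list lay between 0.00 and 0.16, with Cebpg, a partner of ATF4, the highest.

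Of the genes through which mTORC1 senses amino acids, 30 were above the floor, and they split like all genes, with 16 lower (53.3%) and 14 higher. Their median was -0.03 and none reached 1.2-fold. The furthest from 0 were Rragd at 909 on the knockout-labelled array and 765 on the wild-type array (0.25), a Rag GTPase, and the leucine-sensor relative Sesn1 at 3388 on the knockout-labelled array and 2859 on the wild-type array (0.24). Amino acid and peptide carriers outside the 7 families split evenly, with 8 of 16 lower and a median of 0.01. Of these the mitochondrial glutamate carrier Slc25a22 gave -0.27, and the vesicular carrier Slc17a8 gave 0.34 with its wild-type signal of 141 below the floor.

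Enzymes that use the cargo were measured beside it. Of 8 arginine enzymes 6 were lower (median -0.07), and Arg1, which splits arginine into ornithine and urea, gave 318 on the knockout-labelled array and 522 on the wild-type array (-0.71). Its direction was that of the carrier Slc7a1 and opposite to Slc7a2. The nitric oxide synthase gene Nos2 was below the floor at 143 on the knockout-labelled array and 142 on the wild-type array. Ass1, which remakes arginine from citrulline, was named after its values were seen and gave 243 on the knockout-labelled array and 171 on the wild-type array (0.50).

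Of 9 glutamine and glutamate enzymes 6 were lower (median -0.07), with Cad, which starts pyrimidine synthesis, at -0.32 and the transaminase Gpt2 at 0.22. Of 10 cystine and glutathione genes 6 were lower (median -0.04), none by 1.2-fold. Within that list Gclc, the catalytic subunit of glutathione's first enzyme, gave -0.23 and the NRF2 inhibitor Keap1 0.18. Of 7 enzymes of branched-chain amino acids, tryptophan and phenylalanine 6 were higher (median 0.08), with Bcat1 at 0.33 and Bckdhb at -0.26.

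Known partners of the carriers had 4 lower and 4 higher genes above the floor and a median of -0.02. Cd44, the adhesion receptor that stabilises xCT protein, gave 1391 on the knockout-labelled array and 2027 on the wild-type array (-0.54). The ubiquitin ligase gene Nedd4 gave 789 on the knockout-labelled array and 982 on the wild-type array (-0.31).

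**Figure D4:**
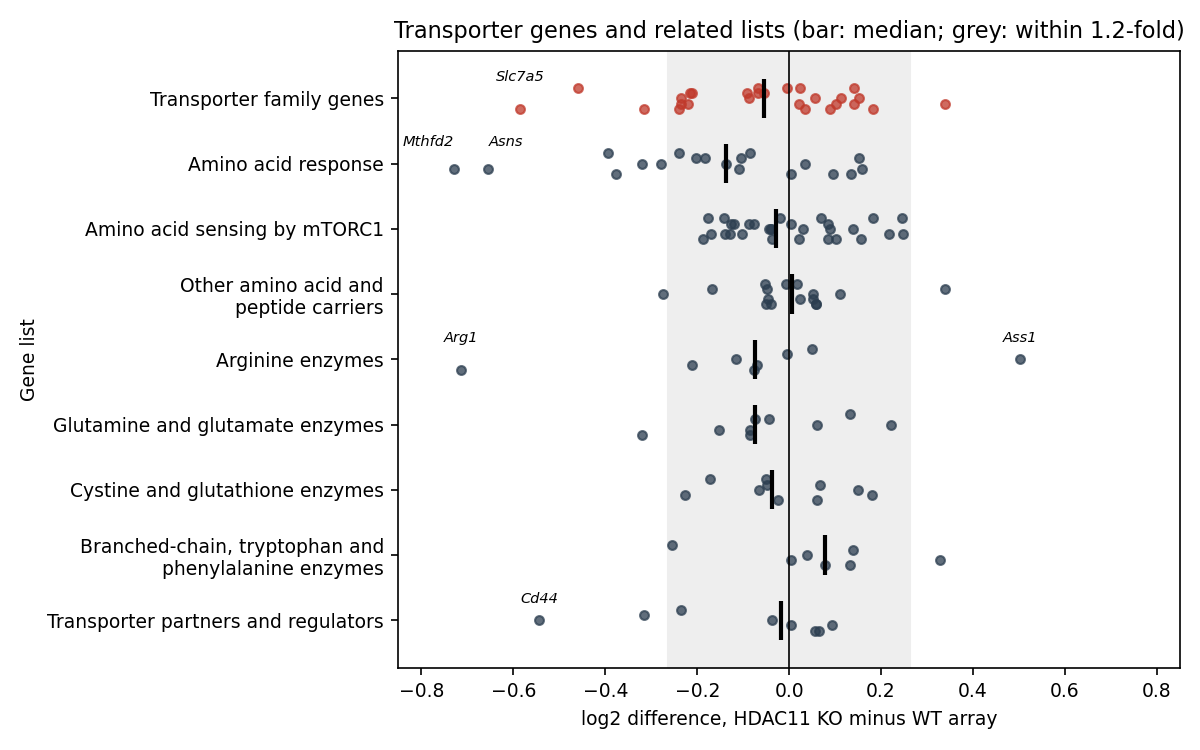
Difference in log2 signal (knockout-labelled minus wild-type array) of each gene above the floor in the transporter families (red) and in 8 related lists (dark points), with a bar at each median and a grey band for differences within 1.2-fold. The amino acid response list has the lowest median at -0.14, and genes that differed by 0.5 or more are named.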

How the data were processed

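Adherent peritoneal macrophages of HDAC11 knockout and wild-type mice were profiled on 1 Affymetrix array each. The deposited signal intensity values are RMA output, which the submitters' processing notes credit to Affymetrix Expression Console 1.2.1, and the authors' series matrix holds the same values as log2, which differed from log2 of the signals by at most 5e-05. No source used here names the build of the coordinates. RMA aligns the 2 signal distributions, so a shift of all genes would not be seen.

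Of 33641 main probesets 26563 had 1 symbol, where identical repeats count once. The probeset of highest mean signal stood for a gene, and the floor was the median over genes of the brighter signal. Sizes of 1.2-fold and 1.5-fold were counted, and every transporter gene could be named. In each of the 8 related lists, at most 4 genes past 1.5-fold or otherwise the 2 furthest from 0 were named. Atf4, Cebpg, Ass1 and Nos2 were named outside that rule. Of 247 list entries 242 were matched, older symbols through RefSeq synonyms. Members and lists were chosen with earlier results of these data known. Promoter sequences are RefSeq's. Steps were tested on simulated data. Alternatives covered source, scaling, probesets, floor, offset, genomic span and members. Python 3.11.15, numpy 2.4.6, pandas 2.3.3, statsmodels 0.14.6 and matplotlib 3.10.9 were used.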

Additional observations from a re-analysis of the deposited data

How the results depend on the processing

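No paired analysis was possible because there was 1 array per genotype, and no test could be made. Under 13 alternatives the median of the transporter genes above the floor lay between -0.07 and 0.06, so its sign was not stable. It was above 0 without a floor (0.05, 63 genes) and with the floor at the 25th percentile (0.06, 56 genes), which bring in dim probesets. Counts of genes lower by 1.2-fold were 3 or 4, although with averaged probesets Slc38a10 (-0.31) entered as Slc1a5 left, and none was higher by 1.5-fold. The count lower by 1.5-fold was 0, Slc7a5 falling just short, under median centring, loess on mean signal, quantile normalization, an offset of 16 and removal of the genomic span trend. Slc7a5 lay between -0.59 and -0.56 in all of them, Slc7a1 between -0.46 and -0.42. The count higher by 1.2-fold was 9 without a floor and 8 with the floor at the 25th percentile. It was 0 under quantile normalization, with the floor at the 75th percentile and with the floor required on both arrays, which removes Slc1a7. Of 216 values of single genes 215 moved by less than the SD among genes of like signal, and Slc1a5 moved to -0.14 with its probesets averaged, where the second one is on the opposite strand. No gene past 1.2-fold changed sign, while Slc38a7 and Slc7a6os, both near 0, lay on either side of it.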
